A study of Homo sapiens with 7 samples.

Results

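The CDK inhibitor genes comprised 7 of the 19970 protein-coding genes of GENCODE 44: the CIP/KIP genes CDKN1A (p21), CDKN1B (p27) and CDKN1C (p57), and the INK4 genes CDKN2A (p16 and p14ARF), CDKN2B (p15), CDKN2C (p18) and CDKN2D (p19). Their membership followed from family names, and the set was chosen with earlier results of these data known. Peaks of the retinoblastoma protein (Rb) were assigned to a gene when they overlapped the stretch from 2000 bp upstream to 500 bp downstream of any annotated transcript start (the promoter), or lay elsewhere within the gene. Of 21231 peaks in 7 lists, 16 peaks from palbociclib-treated cells and 3 from vehicle-treated cells lay at promoters of these genes.

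Rb was profiled by CUT&RUN, in which an antibody directs a nuclease to cut out and release the bound chromatin, in ZR-75-1, a breast cancer line that expresses the oestrogen receptor. Parental cells received 500 nM palbociclib, a drug that blocks CDK4 and CDK6, or DMSO vehicle for 4 days, with 2 Rb libraries in each arm. RB1-knockout (RB1 KO) ZR-75-1 cells received the same treatments, with 1 Rb library in each arm, and 1 parental palbociclib library was made with an IgG2a control antibody. Per the study's methods the RB1 KO cells were expanded from single sorted cells, so they are clonal, unlike the parental population.

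CDK inhibitors bind cyclin-dependent kinases and restrain the phosphorylation of Rb and its relatives. INK4 proteins bind CDK4 and CDK6 and keep them from D-type cyclins, whereas CIP/KIP proteins bind a wider range of cyclin and kinase complexes, including those of CDK2. Unphosphorylated Rb in turn binds E2F transcription factors at gene promoters, so that the inhibitor genes act upstream of Rb and can themselves carry E2F sites.

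On the assembled chromosomes, the DMSO lists held 922 and 753 peaks, the palbociclib lists 8314 and 8171, the RB1 KO lists 4 (DMSO) and 5 (palbociclib) and the IgG2a list 1724. Read totals were unknown, since only peak lists were used, and a peak missing from a list means only that none was called. Lists differed in the weakest peak they held: the smallest −log10 p was 5.23 and 5.33 in the DMSO lists and 4.15 in each palbociclib list.

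The sequences that follow are from hg38 on the strand of each gene, 5′ to 3′, and show what lay under or beside the summits in palbociclib-treated cells. Capitals mark matches to an E2F site (TTTCCCGC, TTTCGCGC, TTTGCCGC or TTTGGCGC), to its core (the same letters without the first T), to the CHR element (TTTGAA or TTCGAA), to CCAAT or to the GC box GGGCGG, all searched on both strands. The CDKN2A and CDKN2D sequences are shown for their E2F matches close to the summit, the CDKN1A intron sequence for its cluster of matches at the edge of a peak, and CDKN1B, CDKN2C, CDKN2B and the CDKN1A promoter are shown for the absence of a full E2F match close to the summit. In CDKN2A a GC box overlaps the E2F match, and the core is contained in every E2F match. The absence of a match was read within 100 bp of each summit, beyond the letters shown. The short CDKN1A promoter and CDKN2B stretches lie between the summits of the replicates and hold neither of them.
CDKN2A, start of p14ARF, chr9:21994661-21994750, minus strand: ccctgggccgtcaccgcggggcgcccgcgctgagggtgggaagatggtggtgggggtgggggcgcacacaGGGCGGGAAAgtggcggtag
CDKN2D, promoter, chr19:10569199-10569298, minus strand: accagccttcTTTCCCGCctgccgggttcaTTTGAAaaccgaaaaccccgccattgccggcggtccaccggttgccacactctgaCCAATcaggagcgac
CDKN1A, intron, chr6:36680621-36680690, plus strand: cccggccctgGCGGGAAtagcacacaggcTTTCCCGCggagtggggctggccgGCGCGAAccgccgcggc
CDKN1B, promoter, chr12:12717136-12717208, plus strand: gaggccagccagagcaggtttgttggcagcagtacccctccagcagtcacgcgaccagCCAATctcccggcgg
CDKN2C, 5′ start, chr1:50959960-50959989, plus strand: GGGCGGggcagcGCGGGAAgcgctaggcgc
CDKN2C, internal start, chr1:50968402-50968431, plus strand: gcccccgtaggaATTGGggcagctgggggt
CDKN1A, promoter, chr6:36678809-36678838, plus strand: ggcggcagacaacaggggaccccgggccgg
CDKN2B, promoter, chr9:22009079-22009108, minus strand: ccgcagaaggacgacgggagggtaatgaag

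After palbociclib, 6 of the 7 inhibitor genes had an Rb peak at a promoter in both libraries, and CDKN1C had none. Such a peak was found at 34.9% of all protein-coding genes. In DMSO-treated cells 1 of the 7, CDKN2C, had a promoter peak in both libraries, against 2.9% of all genes. At the other 5 bound genes (CDKN1A, CDKN1B, CDKN2A, CDKN2B and CDKN2D) the peak was gained, meaning that overlapping promoter peaks were called in both palbociclib libraries and no promoter peak of the gene in either DMSO library, as at 27.8% of all genes. Gained peaks were also required to overlap no DMSO peak of any kind. Both CIP/KIP genes with a peak and 3 of the 4 INK4 genes were of the gained kind. These counts describe a short list and were not tested against the background.

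**Figure D1:**
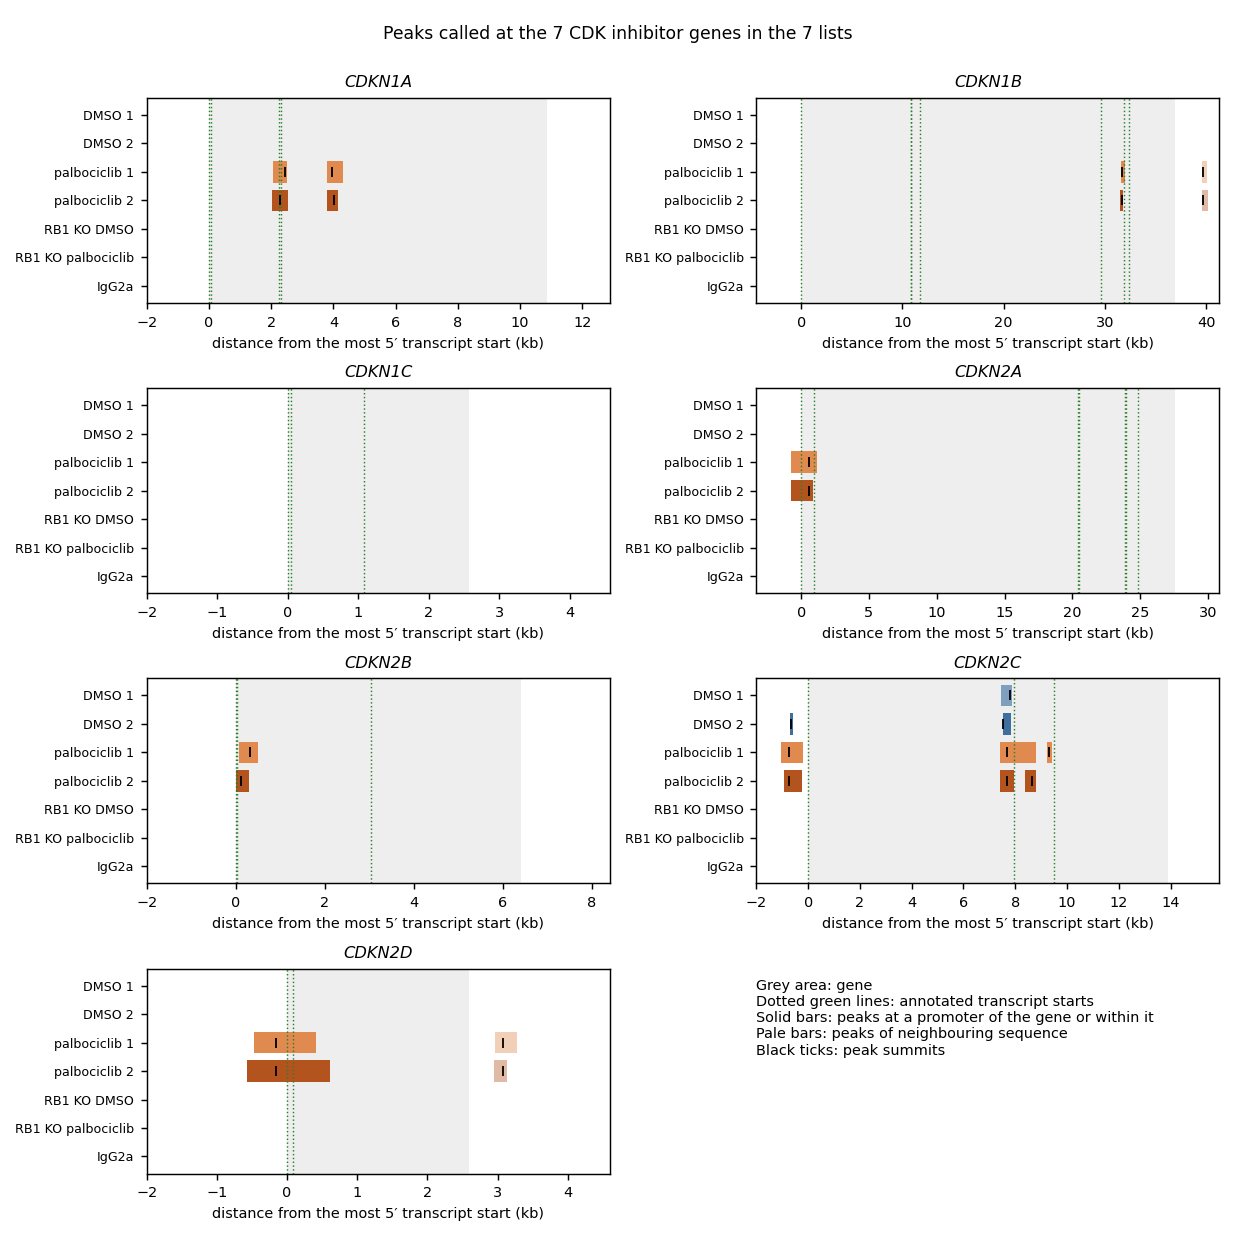
Position of called peaks at the 7 CDK inhibitor genes in each of the 7 lists, as distance in kb from the most 5′ transcript start, with bars for peaks, black ticks for summits, dotted lines for annotated starts and grey for the gene. Peaks lie at promoters of 6 genes with palbociclib, at CDKN2C alone with DMSO, and at no gene in the RB1 KO and IgG2a lists.

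Among the CIP/KIP genes, CDKN1A, which encodes the p53-induced inhibitor p21, carried 2 separate peaks with palbociclib. At the promoter (gene on chr6:36676460-36687337, plus strand) the fold enrichment at the summit, the caller's ratio of local fragments to control background, was 4.59 in palbociclib replicate 1 and 7.35 in replicate 2 (mean 5.97 ± 1.95 SD, n = 2). The peaks were 450 and 503 bp wide and their summits lay 133 and 18 bp downstream of the nearest start, in the first exon of 3 CDKN1A transcripts and introns of 5 others in replicate 1, and in the first exon of 4 and introns of 3 in replicate 2. Only the downstream group of starts (36678710 to 36678771, 5 transcripts) was covered, and the 3 transcripts starting at 36676460 to 36676528 had no peak of their own in any list. The summit stood on 8 fragments in replicate 1 (95% Poisson interval 3.45 to 15.8) and on 14 in replicate 2 (7.65 to 23.5), so the replicates did not differ beyond counting error.

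The other CDKN1A peak had the higher fold enrichment of the pair in both replicates. It lay within the gene, 1653 and 1703 bp downstream of the nearest CDKN1A start, in an intron of all or nearly all CDKN1A transcripts, with a fold enrichment of 8.63 and 10.3 (mean 9.48 ± 1.2, n = 2) on 16 and 15 fragments. In replicate 2 the promoter peak stood on nearly as many fragments (14), and its control background was 1.04 against 0.549 at the intron peak. Both CDKN1A peaks also fall in promoter windows of DINOL, an antisense long non-coding RNA, so their values are shared by the 2 genes. Among the inhibitor genes only CDKN1A had a peak within the gene and outside its own promoters in both palbociclib libraries, as had 3% of all protein-coding genes.

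CDKN1B encodes p27, an inhibitor of cyclin E and cyclin A complexes. Its promoter peak had a fold enrichment of 9.01 and 7.03 in the 2 palbociclib replicates (mean 8.02 ± 1.4) and a width of 455 and 341 bp. The summits lay 187 and 222 bp upstream of the first start of the coding transcripts, and thus 35 bp from each other, and in introns of 3 longer transcripts. Of 5 groups of starts spread over the gene (chr12:12685498-12722369, plus strand), the one at 12717368 to 12717861, which holds all 4 coding transcripts, was the only one with a peak. The fragments at the summit numbered 14 and 11.

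CDKN1C, an imprinted gene that encodes p57, had no peak in any of the 7 lists. The peak nearest to the gene (chr11:2883213-2885775, minus strand) was 16.5 kb away in palbociclib replicate 1 and 43.3 kb away in replicate 2. Whether Rb was absent there or below what the caller detects cannot be told from peak lists.

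The INK4 genes included both the lowest and the highest mean enrichment of the bound inhibitor genes. CDKN2A encodes p16 from one promoter and, from another promoter upstream, p14ARF, which is no CDK inhibitor and instead restrains MDM2. All Rb signal called at CDKN2A (chr9:21967752-21995301, minus strand) lay at the p14ARF end: the starts at 21994392 to 21995301 were covered by a peak of fold enrichment 12.1 and 10.4 (mean 11.3 ± 1.25), whereas the starts of the p16 type at 21974827 to 21974866 had none in any list. The peak was 1851 and 1603 bp wide, wider than nearly all others in its lists (percentile 99.8 and 99.4), and stood on 30 and 31 fragments. Its summit lay 165 and 133 bp downstream of the nearest CDKN2A start, in a CDKN2A intron and in the first exon of CDKN2B-AS1, the antisense RNA known as ANRIL, whose promoter window holds the same peak. The assay gives no strand, so CDKN2A and CDKN2B-AS1 share this value.

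CDKN2B, which lies next to CDKN2A and encodes the TGF-beta-responsive inhibitor p15, had the lowest mean promoter fold enrichment of the 6 bound genes. Its fold enrichment was 6.52 in palbociclib replicate 1 and 4.4 in replicate 2 (mean 5.46 ± 1.5) on 15 and 11 fragments. By fragments it was not apart from the CDKN1A promoter (8 and 14) or the CDKN1B promoter (14 and 11). The control background at CDKN2B was higher than at both of these promoters in each replicate, which lowers the ratio. Its low place by fold enrichment therefore does not show fewer fragments. The CDKN2B peaks were 441 and 286 bp wide, with summits 277 and 79 bp downstream of the start, both in the first exon (5′ UTR) of CDKN2B and inside introns of CDKN2B-AS1. The gene occupies chr9:22002903-22009305 on the minus strand, and its internal start at 22006271 had no peak.

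CDKN2D encodes p19, a further INK4 inhibitor of CDK4 and CDK6. Its promoter (gene on chr19:10566460-10569059, minus strand) had a fold enrichment of 12.7 and 10.3 (mean 11.5 ± 1.71) and peaks of 894 and 1182 bp on 24 and 20 fragments. The summits lay 157 and 155 bp upstream of the first start, outside any annotated transcript, and 2 bp from each other, the closest placement among the inhibitor gene peaks. No transcript start of CDKN2D lacked a peak.

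CDKN2C, which encodes p18, was the inhibitor gene bound in both conditions and had the strongest peak. At its internal start (50968706, in a gene that runs over chr1:50960745-50974634 on the plus strand) fold enrichment was 7.1 and 5.46 in the DMSO replicates and 33.6 and 18.6 in the palbociclib replicates. Every palbociclib value lay above every DMSO value, and the palbociclib replicates differed from each other more than the DMSO replicates did. The means were 6.28 ± 1.16 (n = 2) and 26.1 ± 10.6 (n = 2). The summit stood on 14 and 7 fragments with DMSO (95% intervals 7.65 to 23.5 and 2.81 to 14.4) and on 50 and 37 with palbociclib (37.1 to 65.9 and 26.1 to 51), and these intervals did not overlap between conditions.

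On the log2 scale the CDKN2C values averaged 2.64 ± 0.27 with DMSO and 4.64 ± 0.60 with palbociclib, a difference of 2.01, or a ratio of 4.02, with palbociclib higher in 4 of 4 pairings. The two-sided exact permutation test gave p = 0.333, the smallest value that 2 libraries against 2 allow, so significance at 0.05 could not be reached. CDKN2C was the only inhibitor gene with a value in all 4 parental lists and hence the only one tested. Among the 580 genes with a promoter peak in all 4 lists, all 580 were higher with palbociclib, with a median ratio of 3.67, and 232 of them differed by more than CDKN2C did. When each library was divided by its median over the 469 peaks called in all 4 lists (6.99 and 6.8 with DMSO, 26.7 and 25.8 with palbociclib), the log2 difference at CDKN2C became 0.08 (exact permutation p = 1).

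CDKN2C peaks also differed in breadth and number. The internal peak measured 433 and 321 bp with DMSO and 1406 and 560 bp with palbociclib, where replicate 2 had a separate peak of fold enrichment 4.71 in the stretch that replicate 1 covered with 1 broad peak. Summits lay 147 and 424 bp upstream of the internal start with DMSO and 296 and 265 bp upstream with palbociclib, in the 5′ UTR, in exon 2 of the longer CDKN2C transcript. The internal peak also lay in the promoter window of ENSG00000290102, an unnamed antisense gene, with both palbociclib summits and that of DMSO replicate 2 in its first exon, so its values are shared with that gene. Palbociclib summits were 31 bp apart and DMSO summits 277 bp apart.

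The 5′ start of CDKN2C (50960745) had a peak of its own. It was called in DMSO replicate 2 (fold enrichment 4.63, 132 bp, 8 fragments) but not in DMSO replicate 1, and in both palbociclib libraries at 12.7 and 13.2 (mean 13 ± 0.37) with widths of 825 and 697 bp. The palbociclib summits lay 744 and 725 bp upstream of the CDKN2C start, but 263 and 247 bp from the nearest start of FAF1, the gene transcribed in the opposite direction, in whose first exon they fall. The value is therefore shared with FAF1. A further peak near the last CDKN2C start (50970245) was called in palbociclib replicate 1 alone, at a fold enrichment of 4.92.

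**Figure D2:**
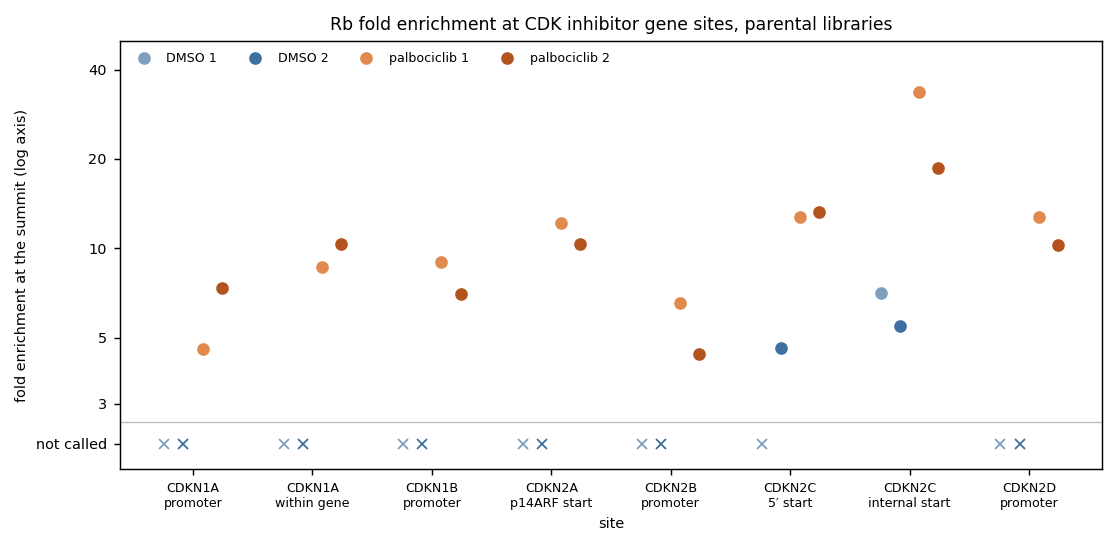
Fold enrichment at the summit (log axis) at each inhibitor gene site in the 4 parental Rb libraries, with crosses where no peak was called. The 2 palbociclib points stand above the DMSO points at the CDKN2C internal start (33.6 and 18.6 against 7.1 and 5.46), and at most other sites only palbociclib points have a value.

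Absence from the DMSO lists was weighed against what those lists could call. If a DMSO library had the same local background relative to its floor as the palbociclib library, it would have needed 8 fragments (replicate 1) or 7 (replicate 2) at the CDKN1A and CDKN2D promoters, at most 11 at CDKN2A, 10 or 9 at CDKN2B and 7 or 6 at CDKN1B. CDKN2A, with 30 and 31 fragments under palbociclib, and CDKN2D, with 24 and 20, stood at more than these numbers with their lower 95% limits as well (20.2 and 21.1, and 15.4 and 12.2). The CDKN1A promoter had 8 fragments in replicate 1, the number that DMSO replicate 1 would have needed, and 14 in replicate 2. CDKN2B had 15 and 11. All 4 of these values reached the numbers needed. Their lower 95% limits (3.45 and 7.65 at CDKN1A, 8.4 and 5.49 at CDKN2B) lay below both numbers, except 7.65, which lay below the larger alone. CDKN1B, with 14 and 11 fragments, stood above its 7 or 6, but its lower limit in replicate 2 (5.49, against 7.65 in replicate 1) lay below both. The CDKN1A intron peak, with 16 and 15 fragments, stood above the 8 that it would have needed at most. The intervals cover counting error only, since duplicate fragments were kept and a summit is by definition a local maximum.

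**Figure D3:**
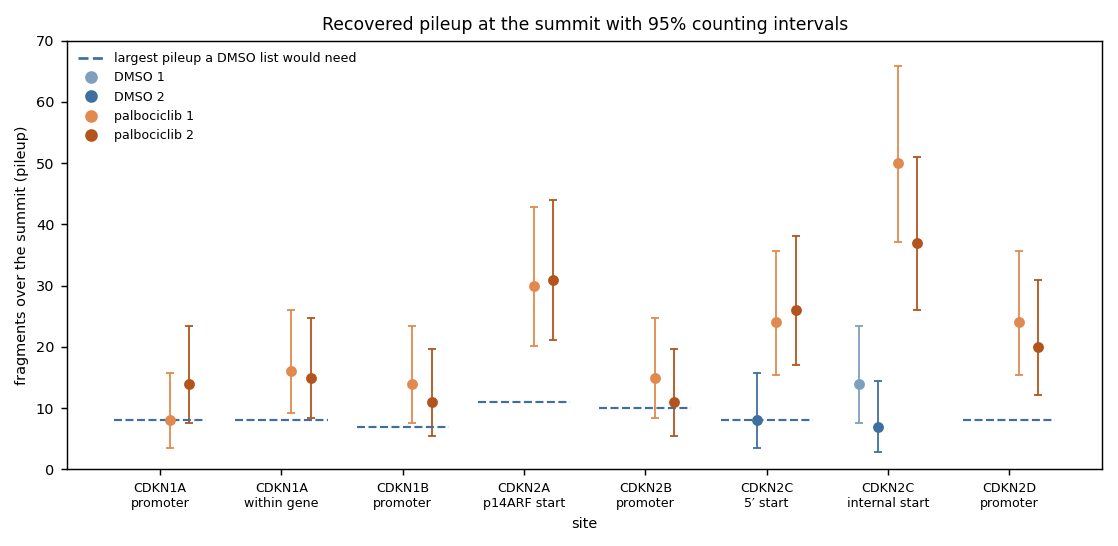
Fragments over the summit with 95% Poisson intervals at each inhibitor gene site in the 4 parental Rb libraries, with dashed lines for the largest pileup that a DMSO list would have needed at sites not called in both. CDKN2A (30 and 31) and CDKN2D (24 and 20) stand above the line with their whole intervals, whereas the CDKN1A promoter in replicate 1 (8) lies on it.

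Peak lists hold no measure of RB1 expression, so the knockout itself was not checked here. In RB1 KO cells none of the 7 genes had a peak with either treatment, and no peak was called within 50 kb of any of them. A promoter peak in either RB1 KO list was found at 0.01% of all protein-coding genes, which leaves almost nothing to compare, and each arm has 1 library. The IgG2a list likewise had no peak at the 7 genes or within 50 kb of them, against 1.95% of all genes with a promoter peak. The nearest IgG2a peak was 83 kb away, from CDKN1B. If the IgG2a library served as the background in peak calling, a low overlap with it was built into the Rb lists.

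The bound genes differed in how they ranked. Among the 6974 protein-coding genes bound at a promoter in both palbociclib libraries, the median of the mean fold enrichments was 8.36, and over the 6 inhibitor genes it was 9.64. CDKN2C stood at percentile 95.1, with 339 genes higher. CDKN2D (69.7) and CDKN2A (68.5) were above the median, CDKN1B (47.1) was near it, and CDKN1A (24.7) and CDKN2B (18.3) were in the lower part. The replicate values of CDKN2B and CDKN1A overlapped, as did those of CDKN1A and CDKN1B and those of CDKN2A and CDKN2D, so these neighbours in the order were not apart beyond their spread. Those of CDKN1B lay below those of CDKN2A, and those of CDKN2C lay above all others.

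**Figure D4:**
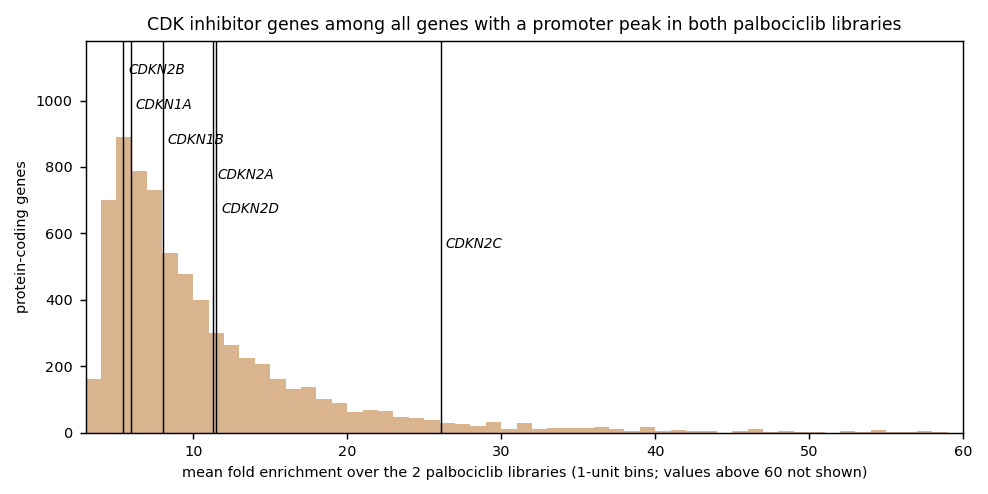
Number of protein-coding genes by mean fold enrichment over the 2 palbociclib libraries (bins of 1 unit, values above 60 not drawn), with a vertical line at each of the 6 bound inhibitor genes. CDKN2B (5.46) and CDKN1A (5.97) lie under the tallest bins and CDKN2C (26.1) lies far out in the right tail.

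The genes whose fold enrichments over the 4 parental lists were most like those of CDKN2C, by Euclidean distance on the log2 scale among 580 genes, were RPS20 at a distance of 0.332 and C1orf112 and METTL18 at 0.336. RPS20, a ribosomal protein gene, had 6.42 and 5.25 with DMSO and 30.8 and 22.4 with palbociclib. C1orf112 and METTL18 carried the same promoter peaks and hence a single set of values (7.86, 5.08, 28.9 and 21.1).

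Sequence at the summits divided the 6 bound genes. Within 100 bp of both palbociclib summits, an E2F match lay at CDKN2A, 33 and 65 bp from them, and at CDKN2D, 69 and 71 bp from them. The core without its first T was also found within 100 bp of a palbociclib summit at both CDKN2C sites, 26 and 45 bp away at the 5′ start, and 83 bp away in replicate 1 at the internal start. CDKN1A, CDKN1B and CDKN2B had no core match in these windows at their promoters. The E2F match in the CDKN1A intron lay 230 and 180 bp from the summits, and outside the peak called in replicate 2. Over all 6725 peaks shared by the palbociclib libraries, 5.58% of such windows, taken at the replicate 1 summit alone, held an E2F match and 24.1% the core.

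Beside its E2F match, CDKN2D had CCAAT letters 5 and 3 bp from the summits and a CHR element 50 and 52 bp from them. CDKN2A held the same kinds of letters within its wider peak, with CCAAT and CHR matches more than 100 bp from the summits. CCAAT also lay 15 and 50 bp from the CDKN1B summits and 6 and 25 bp from those at the internal start of CDKN2C. Of shared peak windows 24.8% held CCAAT and 4.19% a CHR element. A GC box lay within 100 bp of a palbociclib summit at every bound inhibitor gene. The internal start of CDKN2C and the CDKN1A intron peak had none. At the CDKN1A and CDKN1B promoters the window of replicate 2 held a whole GC box and that of replicate 1 did not. At CDKN2B only the window of replicate 1 held one. The share over all shared peaks was 70%, counted at the replicate 1 summit alone, so it is not a like measure. In RefSeq promoters (250 bp before to 50 bp after the start, hg38), available for 6 of the 7 genes, no inhibitor gene held an E2F match or its core, against 4.44% and 17.1% of 15843 promoters. With only 6 genes, this was not tested against those shares. The RefSeq promoters also left out the E2F matches near the CDKN2A and CDKN2D summits and the internal start of CDKN2C. All matches given here are of letters in a window and do not show binding of a factor.

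The genes of the surrounding pathway were grouped by role, and each group is given by its counts. Of 10 cyclins and kinases that the inhibitors bind, 8 were bound at a promoter in both palbociclib libraries (median of mean fold enrichments 9.18), 1 had one in both DMSO libraries and 5 were gained. CCNE2 (51.8 and 57 with palbociclib, 23.3 and 14.1 with DMSO) and CCNE1 (25.4 and 30, with 6.09 in DMSO replicate 2 alone), which encode the E-type cyclins that p21 and p27 restrain, were the highest. CCND1 (3.42 and 3.24), a D-type cyclin gene, and CDK2 (5.38 and 7.49) were the lowest, and CDK6 and CCND2 had no promoter peak in either palbociclib library. CCND1 had no promoter peak with DMSO but was not counted as gained. Its palbociclib peaks did not meet both conditions of overlapping each other and overlapping no DMSO peak.

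Of 12 genes for ubiquitin ligase parts and partners that degrade CIP/KIP proteins, 10 were bound with palbociclib in both libraries (median 10.8), 2 in both DMSO libraries, and 7 were gained. DTL, which targets p21 for degradation on chromatin, reached 49.4 and 74.1 against 13.7 and 12.7 with DMSO, and PCNA, the clamp on which this happens, reached 39.5 and 37.5 against 8.99 and 7.82. CUL1 (6.68 and 3.61) and RNF123 (5.39 and 5.24) were the lowest, and SKP1 and DDB1 had no such peak. At DTL and PCNA, as at CDKN2C, every palbociclib value lay above every DMSO value. This does not set them apart, since all 580 genes with a promoter peak in all 4 parental lists were on average higher with palbociclib.

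Of 25 transcription and chromatin regulators of the inhibitor genes, 18 were bound with palbociclib in both libraries (median 10.4), 3 in both DMSO libraries, and 15 were gained. SP1, a GC-box binding factor, had 59.1 and 54.9 (DMSO 10.5 and 10.6) and EZH2, the Polycomb methyltransferase known to silence the CDKN2A locus, had 41.7 and 43.6 (DMSO 13.5 and 10.1). SMAD3 (5.25 and 3.57) and ETS1 (5.59 and 5.16) were the lowest, and 7 genes had no such peak.

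Of 9 kinases and phosphatases that act on CDKs, 6 were bound with palbociclib in both libraries (median 15.7), 3 in both DMSO libraries, and 2 were gained. CDKN3, a CDK phosphatase that despite its symbol belongs to neither inhibitor family, had 37.9 and 40.6 (DMSO replicate 2 alone, 7.44), and PKMYT1 had 23.5 and 27.2 (DMSO 7.77 and 6.61). CDC25B (10.5 and 8.6) and CDC25C (16.8 and 12.1) were the lowest, and the subunits of the CDK-activating kinase, CDK7, CCNH and MNAT1, had no such peak.

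Of 13 E2F and pocket protein genes, 10 were bound with palbociclib in both libraries (median 14.3), 3 in both DMSO libraries, and 6 were gained. E2F1 had 57.7 and 52.4 (DMSO 13.7 and 17.2) and RBL1 had 39.9 and 46 (DMSO 15.4 and 13.8), both above CDKN2C in every library. RB1 itself (5.13 and 6.3) and TFDP2 (4.08 and 7.62) were the lowest, and E2F4, E2F5 and RBL2 had no peak in both libraries. In none of these lists did a gene have a promoter peak in the IgG2a or RB1 KO lists. Over all protein-coding genes the shares were only 1.95% and 0.01%, so lists this short leave little to compare.

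**Figure D5:**
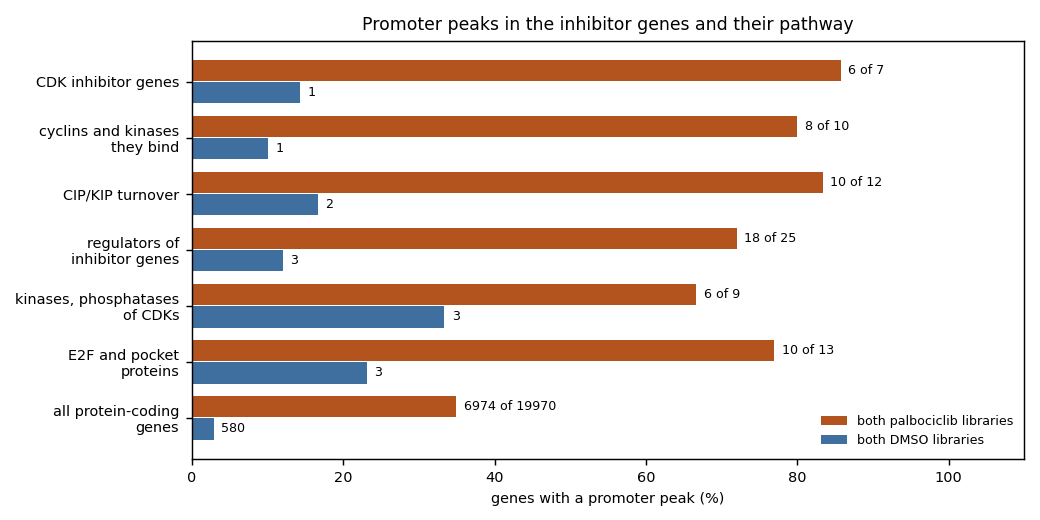
Share of genes (%) with a promoter peak in both palbociclib libraries and in both DMSO libraries for the CDK inhibitor genes, 5 pathway lists and all protein-coding genes, with counts beside the bars. The inhibitor genes stand at 6 of 7 with palbociclib and 1 with DMSO, and all genes at 6974 and 580 of 19970.

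The counts at the inhibitor genes depended on how strong a peak had to be. With only peaks of at least 5-fold enrichment, or of −log10 q of at least 5, CDKN1A and CDKN2B lost their call, which left 3 gained genes in place of 5. With every parental list limited to its 753 best peaks by q, no inhibitor gene kept a promoter peak in each palbociclib library, since CDKN2C ranked 302 and 888 there. CDKN2C kept its promoter peak in both DMSO libraries.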

How the data were processed

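The 7 deposited narrowPeak lists, 1 per library, were used. As the study describes it, reads were trimmed by the authors and mapped with Bowtie2 (2.3.4.1) to the hg38 build. Mitochondrial and blacklisted reads were dropped. The authors kept duplicates and called peaks per library with MACS2 2.2.7.1 on paired fragments (q 0.05) against IgG. The control of the IgG2a list is not given in the sources used here. The deposited columns hold, as the authors' caller wrote them, a display score (not used in any result), the fold enrichment ratio at the summit, −log10 p-values and −log10 q-values.

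Peaks on chromosomes 1 to 22 and X were joined to GENCODE 44 starts (at least 1 bp overlap), after peak ends were checked against chromosome lengths. Pileup and background at each summit were recovered from fold enrichment, taken as (pileup + 1)/(background + 1), and the Poisson p-value, with −log10 p refitted within 0.000656. The recovery and overlap code was tested on simulated data. Values with ± are SDs over 2 libraries, which were separate biological replicates per the study's reporting summary, so p-values measure only the spread between these libraries. Labels gave no batch. All 7 inhibitor genes are named. From each pathway list the 2 highest and the 2 lowest by mean fold enrichment are named, and genes without a peak where there were 5 or fewer. Members, lists and tests were chosen with earlier results of these data known. Python 3.11.15, numpy 2.4.6, scipy 1.17.1, pandas 2.3.3 and matplotlib 3.10.9 were used. Alternatives tried were the promoter window, transcript set, peak thresholds, list length, overlap, scaling, the value compared, a replicate block and leaving out each library.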

Additional observations from a re-analysis of the deposited data

How the results depend on the processing

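With 6 inhibitor genes bound in both palbociclib libraries, 1 in both DMSO libraries and 5 gained, the counts stayed at these values with promoters from 1000 bp upstream to 100 bp downstream or 2000 bp on each side, with protein-coding transcripts only, and with each library left out (range 6 to 6, 1 to 1 and 5 to 5). The gained count also stayed at 5 with 50% reciprocal overlap. A common cutoff at −log10 p of 5.33, chosen after seeing the data, left all 3 counts as they were. With a fold enrichment of at least 5 the gained genes numbered 3, and with −log10 q of at least 5 they numbered 3 and the genes bound in both DMSO libraries 0. With lists of equal length (753 peaks) the genes bound in both palbociclib libraries and the gained genes numbered 0 and 0. Those bound in both DMSO libraries stayed at 1. The full lists held 8314 and 8171 peaks with palbociclib and 922 and 753 with DMSO, so the cut fell mainly on the palbociclib lists. The log2 difference at CDKN2C was 2.01, and 2.12 with pileups, 3.55 with −log10 q, 1.76 with the widest peak and 0.08 after scaling to peaks shared by all 4 parental lists. Leaving out 1 library gave 1.58 to 2.43, with no test. With the replicate block, pairing libraries that share only a number, it was 2.01 (exact sign-flip p = 0.5, the smallest that 2 pairs allow). At the CDKN1A and CDKN2B promoters the peaks stood on 8 to 15 fragments.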

Other observations

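Rb peaks with palbociclib were also called at genes next to CDKN1B, CDKN2D and CDKN1C. Next to CDKN1B, a peak at the promoter of APOLD1 had a fold enrichment of 17.8 and 12.9 in the 2 palbociclib libraries (mean 15.4 ± 3.46, n = 2), on 26 and 19 fragments, with summits 3 bp apart, and every value there lay above those of the CDKN1B promoter (9.01 and 7.03). At the 3′ side of CDKN2D, the promoter of KRI1 had 11.3 and 13.3 with the summit at the same base in both libraries, and ATG4D, further along, had 6.62 and 8.58. The KRI1 and CDKN2D values (12.7 and 10.3) overlapped.

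Around CDKN1C, which had no peak, PHLDA2, another imprinted gene of the same cluster, had a promoter peak of 4.35 and 5.93 with palbociclib, and SLC22A18, between them, had one of 6.01 in replicate 1 alone. None of these neighbours had a peak in the DMSO, RB1 KO or IgG2a lists. Base composition at bound sites was high: the median GC content was 70.6% over the 6725 peak windows shared by the palbociclib libraries and 62.7% over 15843 RefSeq promoters. The RefSeq promoter of CDKN2C had a GC content of 46.3%, the lowest of the 6 inhibitor genes with such a promoter, and that of CDKN1A had 74.3%, the highest. That CDKN2C promoter (chr1:50960495-50960794) contained none of the palbociclib summits of the gene. Within 100 bp of those summits the GC content was 66.7 and 68.7% at the internal start and 76.6 and 74.6% at the 5′ start.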
